A study of Homo sapiens with 12 samples.

Results

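The PHLDA and Tribbles families were followed through gain and loss of CIN85 in HOS, an established human osteosarcoma cell line. The 5 genes PHLDA1, PHLDA2, PHLDA3, TRIB1 and TRIB2 were selected by symbol out of 25141 genes counted. PHLDA2 was chosen on its values in these same libraries, lower with CIN85 gain and higher with CIN85 loss, and the other 4 genes were taken as relatives with earlier results in view. All 5 genes were detected in all 12 libraries and passed the filter on low counts.

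RNA-seq was made of 4 groups of 3 libraries, and every group was HOS. The upCIN85 cells were a pool that survived geneticin after transfection with a plasmid for full-length CIN85 under a CMV promoter, and the Mock cells took up the empty vector instead. The siCIN85 cells were treated with a mix of CIN85 siRNAs, which lowers CIN85 for a limited time, and the siNeg cells with a non-targeting siRNA. Nothing in the labels says that the 3 libraries of a group came from separate cultures, so SDs, SEs and P-values measure the spread between these libraries, which may be technical. Each library is a bulk sample, in which fewer cells of a type and less RNA per cell cannot be told apart.

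PHLDA proteins are small proteins built around a pleckstrin homology domain, which binds phosphoinositides of the membrane. PHLDA1 is induced by growth factor and ERK signaling, PHLDA2 is an imprinted gene that restrains growth of the placenta, and PHLDA3 is a p53 target whose product competes with the kinase AKT for phosphoinositides. Tribbles proteins are pseudokinases, which keep the fold of a kinase but not its normal activity, and TRIB1 and TRIB2 bring C/EBP transcription factors to the ubiquitin ligase COP1 for degradation. CIN85, encoded by SH3KBP1, is an SH3 domain adaptor that binds the ubiquitin ligase CBL and takes part in endocytosis of receptors.

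The genes of each family resemble each other, which bears on whether reads of one could be counted for another. Over the whole translated coding sequences, PHLDA1 and PHLDA3 were identical at 53.2% of 126 aligned residues, PHLDA2 and PHLDA3 at 49.6% of 123, and PHLDA1 and PHLDA2 at 43.4% of 152. TRIB1 and TRIB2 were identical at 60.7% of 336 aligned residues. At the transcript level the longest run of bases shared by any pair of the 5 genes was 28, between PHLDA1 and PHLDA3, which is shorter than the 75-base reads. A noncoding gene on the same strand, AC096677.2, covers 598 exon bases at the 3′ end of PHLDA3, the end that the library kit reads, so the PHLDA3 counts are uncertain. PHLDA1 overlaps antisense genes at 76030494 to 76031378 and 76032658 to 76033897, away from its annotated 3′ end at 76025447. The strand setting of the counting is not given in the sources used here, so reads within these overlaps cannot be told apart.

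Gene positions are on GRCh38 with GENCODE release 29. PHLDA2 (ENSG00000181649) lies on the minus strand of chromosome 11 from 2928273 to 2929455, in the imprinted region 11p15. PHLDA1 (ENSG00000139289) lies on the minus strand of chromosome 12 from 76025447 to 76033932, and PHLDA3 (ENSG00000174307) on the minus strand of chromosome 1 from 201464383 to 201469237. TRIB1 (ENSG00000173334) lies on the plus strand of chromosome 8 from 125430321 to 125438405, and TRIB2 (ENSG00000071575) on the plus strand of chromosome 2 from 12716889 to 12742734.

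Libraries held 3540641 to 6049458 counts in total, fewer in siNeg and siCIN85 (3540641 to 4174860) than in Mock and upCIN85 (5334731 to 6049458). Levels are given as CPM, the count scaled to the TMM-normalized library size. In siCIN85, SH3KBP1 was at 7.54 ± 3.19 CPM (mean ± SD, n = 3), against 85.1 ± 2.37 for siNeg, and the upCIN85 libraries had 81.3 ± 9.61 against 77.5 ± 5.0 for Mock. Its 11.4-fold lower level in siCIN85 than in siNeg (log2FC -3.51, SE 0.21, adjusted P = 5.09e-08, edgeR) held for every library. In upCIN85 versus Mock its log2FC was 0.07 (SE 0.16, adjusted P = 0.887, edgeR), so no higher SH3KBP1 count was detected. Whether transcripts of the plasmid carry the 3′ end that this kit counts is not given in the sources used here, so this count does not check the upCIN85 label, and each upCIN85 direction below is that of the libraries so labelled. The paper states that CIN85 was overexpressed in these cells. It examined the protein by western blot and quantified the full-length form by densitometry with a test. These counts do not measure protein. Of the mesenchymal markers, VIM was at 434 to 642 CPM and COL1A1 at 337 to 1240, and all 7 were detected in every library, while the leukocyte genes PTPRC and CD3E each had 1 count in total and the endothelial genes VWF and PECAM1 had 4 and 24. The endothelial gene CDH5 (0.578 to 6.12 CPM) and the myeloid gene CD14 (0.680 to 2.02 CPM) were detected in every library at low levels. The epithelial genes EPCAM (24.6 to 61.2 CPM) and CDH1 (12.8 to 34.2 CPM) were detected too.

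PHLDA2 was lower in upCIN85 than in Mock and higher in siCIN85 than in siNeg, which is the pattern it was chosen for. Its level was 294, 392 and 342 CPM in Mock replicates 1, 2 and 3, and 233, 254 and 205 CPM in upCIN85. It was 308, 329 and 304 CPM in siNeg and 412, 409 and 422 CPM in siCIN85. In each comparison the libraries of the groups did not overlap. The 3 siCIN85 libraries were close together, and the 3 Mock libraries were the most spread.

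The PHLDA2 mean was 343 ± 49.3 CPM (SD, n = 3) in Mock and 230 ± 24.7 in upCIN85, a 1.49-fold lower level (log2FC -0.57, SE 0.11). It was 314 ± 13.3 CPM in siNeg and 414 ± 6.79 in siCIN85, a 1.32-fold higher level (log2FC 0.40, SE 0.11). From low to high the groups stood as upCIN85, siNeg, Mock and siCIN85, and the siNeg and Mock libraries overlapped. These are description only, since both contrasts were used to select PHLDA2. With at least 1166 counts in every library, PHLDA2 was the most deeply counted of the 5 genes.

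**Figure D1:**
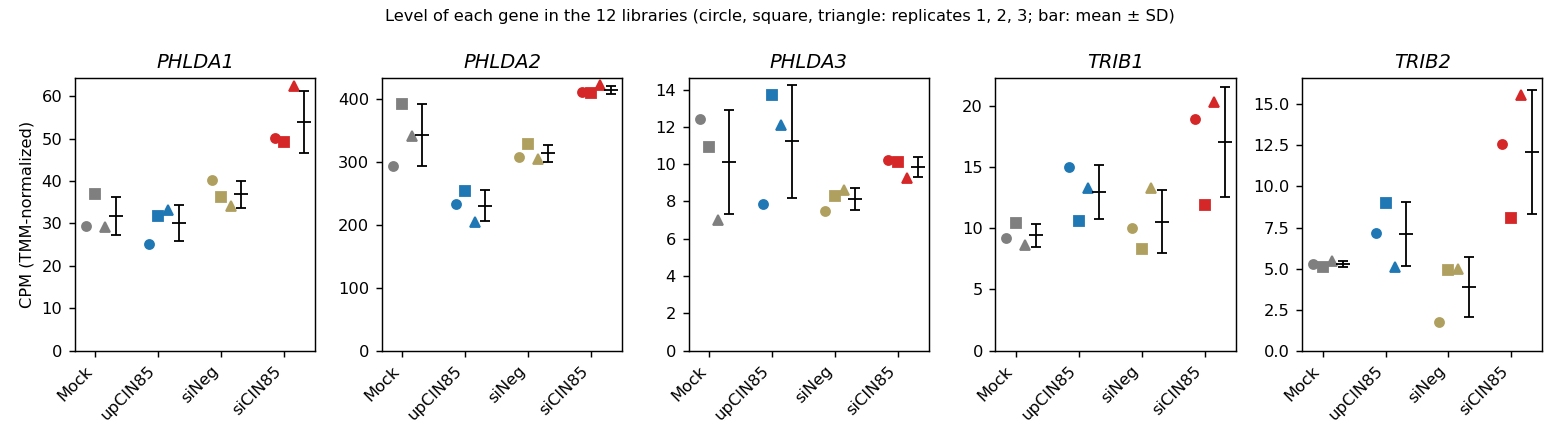
CPM (vertical axes, each from 0, on a scale of its own) of the 5 genes in the 12 libraries by group, with the mean ± SD of 3 libraries beside them. PHLDA2 lay at 205 to 254 in upCIN85 and at 409 to 422 in siCIN85, while TRIB2 lay at 1.75 to 4.95 in siNeg and at 8.10 to 15.6 in siCIN85.

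PHLDA1, the ERK-responsive relative, was higher with CIN85 loss and showed no separation with CIN85 gain. Its level was 29.3, 37.0 and 29.1 CPM in Mock and 25.2, 31.7 and 33.1 CPM in upCIN85. These ranges overlapped. In siNeg it was 40.2, 36.2 and 34.1 CPM and in siCIN85 50.2, 49.2 and 62.3 CPM, so every siCIN85 library was above every siNeg library. The means were 31.8 ± 4.49 CPM in Mock and 30.0 ± 4.25 in upCIN85 (SD, n = 3), with a log2FC of -0.09 (SE 0.15). They were 36.8 ± 3.11 CPM in siNeg and 53.9 ± 7.31 in siCIN85, a 1.46-fold difference (log2FC 0.55, SE 0.15). PHLDA1 therefore had the direction of PHLDA2 in the knockdown, and in upCIN85 its log2FC was smaller than its SE and ranged from -0.17 to 0.03 over the alternative settings.

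PHLDA3, the p53-responsive relative, differed little in either comparison. Its level was 12.4, 10.9 and 7.01 CPM in Mock and 7.87, 13.7 and 12.1 CPM in upCIN85. The Mock libraries lay within or near the range of upCIN85 and the groups overlapped. In siNeg it was 7.50, 8.31 and 8.59 CPM and in siCIN85 10.2, 10.1 and 9.24 CPM, all above siNeg but by a small margin. The log2FC was 0.16 (SE 0.23) in upCIN85 versus Mock, from 10.1 ± 2.78 to 11.2 ± 3.02 CPM (SD, n = 3), and 0.28 (SE 0.26) in siCIN85 versus siNeg, from 8.13 ± 0.569 to 9.85 ± 0.529 CPM. PHLDA3 had 30 to 84 counts per library.

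TRIB1 had a higher mean in both directions of CIN85 change, and it passed in neither comparison in edgeR's fit of all 12 libraries. Its level was 9.22, 10.4 and 8.59 CPM in Mock and 15.04, 10.6 and 13.3 CPM in upCIN85. The upCIN85 libraries were all above the Mock libraries, the lowest of them narrowly. In siNeg it was 9.996, 8.31 and 13.3 CPM and in siCIN85 18.9, 11.9 and 20.3 CPM, where siCIN85 replicate 2 fell within the siNeg range. The mean was 9.39 ± 0.893 CPM in Mock and 13.0 ± 2.22 in upCIN85 (SD, n = 3; log2FC 0.46, SE 0.23), and 10.5 ± 2.53 in siNeg and 17.04 ± 4.54 in siCIN85 (log2FC 0.70, SE 0.23). Each value rests on 34 to 86 counts.

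TRIB2 had the largest difference of the 5 genes, in the knockdown. Its level was 5.27, 5.09 and 5.44 CPM in Mock and 7.17, 8.99 and 5.10 CPM in upCIN85, where replicate 3 was as low as Mock. In siNeg it was 1.75, 4.89 and 4.95 CPM (7, 20 and 19 counts) and in siCIN85 12.6, 8.10 and 15.6 CPM (52, 28 and 59 counts). Every siCIN85 library was above every siNeg library. The low siNeg replicate 1 widened the gap. The mean was 5.27 ± 0.172 CPM in Mock and 7.09 ± 1.95 in upCIN85 (SD, n = 3; log2FC 0.43, SE 0.31). It was 3.86 ± 1.83 CPM in siNeg and 12.1 ± 3.77 in siCIN85, a 3.14-fold higher level (log2FC 1.65, SE 0.34). Without siNeg replicate 1 the log2FC was 1.30.

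**Figure D2:**
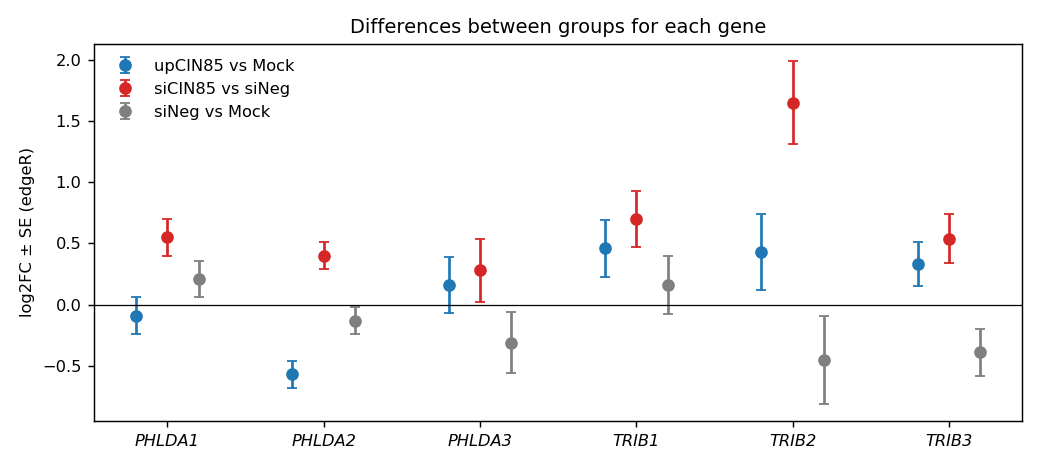
log2FC ± SE (vertical axis) from edgeR's fit of all 12 libraries for the 5 genes and for TRIB3, in the 3 comparisons. PHLDA2 had values of opposite sign in upCIN85 versus Mock (-0.57) and siCIN85 versus siNeg (0.40), whereas TRIB1 (0.46 and 0.70) and TRIB2 (0.43 and 1.65) were above 0 in both.

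The 5 genes are counted together as a description, since the contrasts chose PHLDA2. At an adjusted P below 0.05 in edgeR, 1 of 5 genes (PHLDA2) passed in upCIN85 versus Mock, where 1.23% of the 12542 genes tested did, and 1 of 5 (TRIB2) in siCIN85 versus siNeg, where 1.04% did. By DESeq2 on the same 12 libraries, 1 of 5 (PHLDA2) passed in upCIN85 versus Mock, where 2.50% of all genes did, and 2 of 5 (PHLDA2 and TRIB2) in siCIN85 versus siNeg, where 2.71% did. In edgeR's fit PHLDA2 was no longer called in upCIN85 without Mock replicate 2, Mock replicate 3 or upCIN85 replicate 3. TRIB2 was no longer called without siNeg replicate 1 or 2 or siCIN85 replicate 1 or 3, nor when only the 6 knockdown libraries were fitted. Libraries of upCIN85 and Mock did not overlap for 2 of 5 genes (PHLDA2, lower, and TRIB1, higher), against 20.7% of all genes in either direction. In siCIN85, 4 of 5 genes were higher in every library than in siNeg, all but TRIB1, against 9.91% of all genes.

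The siNeg and siCIN85 libraries of the same replicate number varied together, and within these pairs the level was higher in siCIN85 in 3 of 3 pairs for each of the 5 genes, against 22.4% of all genes. This count and those below are description only, since this contrast chose PHLDA2 and the other genes were taken with earlier results in view. The ratio within pairs was 1.24 to 1.39 for PHLDA2 and 1.25 to 1.83 for PHLDA1, and 1.08 to 1.36 for PHLDA3. It was 1.43 to 1.89 for TRIB1 and 1.66 to 7.21 for TRIB2, with the highest TRIB2 ratio in the pair of siNeg replicate 1. TRIB1, whose groups overlapped, thus was higher in each pair. The number of genes that passed with the replicate number as a block depended on the fit. It was 1 of 5 (TRIB2) in edgeR's fit of all 12 libraries, where 1.59% of all genes passed, and 2 of 5 (PHLDA2 and TRIB2) by DESeq2 on the 6 knockdown libraries, where 2.81% did. In an edgeR fit of the 6 knockdown libraries, a setting chosen after seeing the data, it was 4 of 5 (all but PHLDA3), and 10.6% of all genes passed. The log2FC values of this last fit equalled those above to 2 decimals, with smaller SEs (0.08 for PHLDA2, 0.12 for PHLDA1, 0.19 for TRIB1 and 0.29 for TRIB2).

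Lower values in upCIN85 together with higher values in siCIN85, without overlap of libraries in either comparison, were found for PHLDA2 and for none of its 4 relatives. Over all genes 127 of 12542 (1.01%) had this pattern. The difference between the response of PHLDA2 and that of a relative was not tested. In upCIN85, 4.46% of the genes tested had a lower log2FC than PHLDA2, against 35.4% for PHLDA1, 73.7% for PHLDA3, 92.2% for TRIB2 and 93.3% for TRIB1. In siCIN85 the shares were 82.7% for PHLDA3, 89.7% for PHLDA2, 94.1% for PHLDA1, 96.6% for TRIB1 and 99.8% for TRIB2. All 5 genes thus stood in the upper part of the knockdown distribution, whereas in upCIN85 they were spread from its low to its high end.

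**Figure D3:**
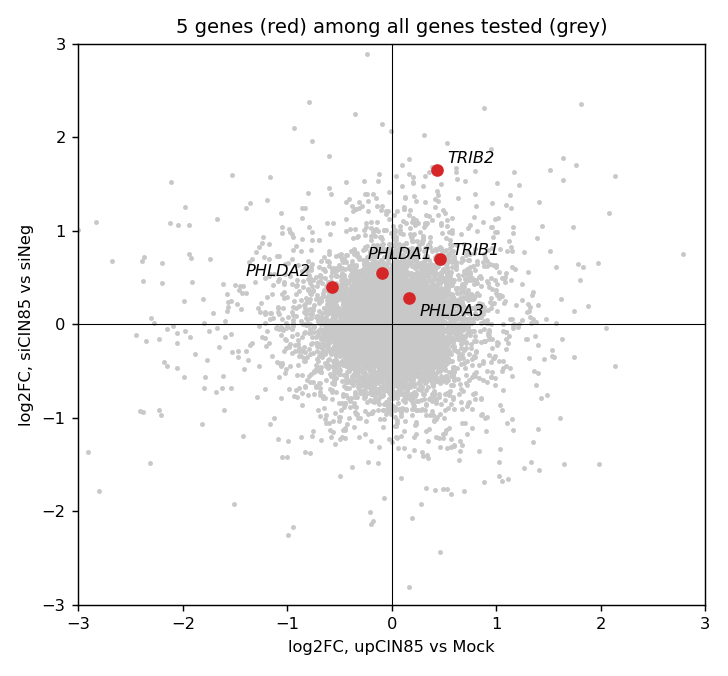
log2FC in upCIN85 versus Mock (horizontal axis) against log2FC in siCIN85 versus siNeg (vertical axis) for the 12542 genes tested, of which 18 lie outside the axes drawn, with the 5 genes in red. PHLDA2 is to the left and above 0, PHLDA1 is near 0 on the horizontal axis, and TRIB1 and TRIB2 are to the right and above 0.

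Mock and siNeg were compared to see whether the genes differ between the control groups, a contrast that the selection did not use. None of the 5 genes passed in siNeg versus Mock (0 of 5 by edgeR at an adjusted P below 0.05, 0 at an unadjusted P below 0.05 and 0 by DESeq2), and the shares of all genes were 0.526%, 12.4% and 1.66%. The log2FC was -0.13 (SE 0.11, adjusted P = 0.666, edgeR) for PHLDA2, 0.21 (SE 0.15, adjusted P = 0.608) for PHLDA1 and -0.31 (SE 0.25, adjusted P = 0.653) for PHLDA3. It was 0.16 (SE 0.24, adjusted P = 0.839, edgeR) for TRIB1 and -0.45 (SE 0.36, adjusted P = 0.651) for TRIB2. TRIB2 was the 1 gene of 5 whose siNeg libraries were all lower than the Mock libraries, against 9.94% of all genes. Plasmid with geneticin, siRNA and any difference in batch cannot be told apart in this contrast.

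TRIB3, the other Tribbles gene, is known to be induced by ATF4 in the stress response. Like 0.933% of all genes, TRIB3 was higher in every library of upCIN85 and of siCIN85 than in its control. Its level was 22.8, 17.8 and 23.9 CPM in Mock and 27.3, 28.3 and 25.5 CPM in upCIN85, and 16.7, 18.1 and 14.3 CPM in siNeg and 31.3, 21.7 and 18.5 CPM in siCIN85. It did not pass in either comparison (log2FC 0.33, SE 0.18, adjusted P = 0.416, and log2FC 0.54, SE 0.20, adjusted P = 0.186, edgeR). The related pseudokinase STK40 had log2FC values of 0.25 (SE 0.18, adjusted P = 0.562) and 0.43 (SE 0.19, adjusted P = 0.275, edgeR). Of these 2 genes, 0 passed by edgeR or DESeq2 in either comparison, and at an unadjusted P below 0.05 there were 0 in upCIN85 and 2 in siCIN85, where both passed with the replicate block on the 6 knockdown libraries, the blocked fit used for the counts below. Of all genes, 14.5% had an unadjusted P below 0.05 in upCIN85 versus Mock and 15.7% in siCIN85 versus siNeg.

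PHLDA1 belongs to a known score of transcripts that respond to ERK, and 3 of the 8 other genes of that score that were tested, out of 9, rose in siCIN85 versus siNeg by edgeR, against 1.04% of all genes. Without siNeg replicate 1, siNeg replicate 2, siCIN85 replicate 1 or siCIN85 replicate 3 the number was 0 of 8. Among all genes in those fits 17 of 13083, 13 of 13100, 9 of 13020 and 14 of 13078 passed. Without siCIN85 replicate 2 the number was 5 of 8, where 362 of 13106 genes passed. DUSP4, a phosphatase that feeds back on MAP kinases, was at 27.6 CPM in siCIN85 and 9.16 in siNeg (log2FC 1.59, SE 0.32, adjusted P = 0.0253, edgeR). ETV4, an ETS transcription factor downstream of ERK, was at 26.8 and 10.8 CPM (log2FC 1.31, SE 0.25, adjusted P = 0.0251, edgeR). CCND1, which encodes cyclin D1 and drives entry into S phase, was at 330 and 200 CPM (log2FC 0.73, SE 0.16, adjusted P = 0.0324, edgeR).

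All 8 ERK-responsive genes had a log2FC above 0 in siCIN85, with a median of 0.76 against -0.01 over all genes. With the replicate block 6 of 8 passed in the fit of the 6 knockdown libraries (10.6% of all genes) and 3 in the fit of all 12 (1.59%), and by DESeq2 4 passed without the block (2.71%) and 4 with it (2.81%). In upCIN85 versus Mock 0 of 8 passed by edgeR, with 1 at an unadjusted P below 0.05 and 1 by DESeq2. The shares of all genes were 1.23%, 14.5% and 2.50%, and the median was -0.16 against 0.01. In siNeg versus Mock 0 of 8 passed, with 1 at an unadjusted P below 0.05 and 0 by DESeq2, against 0.526%, 12.4% and 1.66% of all genes. All 8 were below 0 with a median of -0.20. The siNeg libraries are the baseline of the knockdown. For these genes (log2FC -0.68 to -0.02), as for TRIB2, that baseline lay below Mock by amounts that did not pass. Mean levels in siCIN85 also stood above Mock for the 3 genes that passed and for TRIB2. They were 27.6 against 14.7 CPM for DUSP4, 26.8 against 11.7 for ETV4, 330 against 241 for CCND1 and 12.1 against 5.27 for TRIB2. The siCIN85 and Mock groups were not tested against each other. The list was written with earlier results of these data known and is not independent evidence.

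None of the known p53 targets listed beside PHLDA3 passed in either CIN85 comparison in edgeR's fit of all 12 libraries. Of 27 genes, 0 passed in upCIN85 versus Mock, with 5 at an unadjusted P below 0.05 and 2 by DESeq2. The shares of all genes were 1.23%, 14.5% and 2.50%. In siCIN85 versus siNeg 0 passed, with 6 at an unadjusted P below 0.05 and 2 by DESeq2, against 1.04%, 15.7% and 2.71%. With the replicate block 3 of 26 passed, against 10.6%. The medians were 0.01 and 0.09. CDKN1A, the cell cycle inhibitor p21, had a log2FC of 1.32 (SE 0.33, adjusted P = 0.0642, edgeR) in siCIN85, with overlapping libraries. GDF15, a secreted stress cytokine, had values of 1.22 with CIN85 gain (SE 0.66, adjusted P = 0.420, edgeR) and 1.49 with CIN85 loss (SE 0.58, adjusted P = 0.225), at a mean of 4.04 CPM or less.

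Among the partners of Tribbles proteins, 0 of 12 genes passed by edgeR in upCIN85 versus Mock, with 2 at an unadjusted P below 0.05 and 0 by DESeq2. The shares of all genes were 1.23%, 14.5% and 2.50%. In siCIN85 versus siNeg 0 passed, with 2 at an unadjusted P below 0.05 and 1 by DESeq2, against 1.04%, 15.7% and 2.71%. With the replicate block 1 of 11 passed, against 10.6%. The medians were 0.06 and -0.01. CEBPA, which encodes the C/EBP factor that TRIB1 and TRIB2 are known to target, had a log2FC of 1.40 (SE 0.47, adjusted P = 0.149, edgeR) in upCIN85 at 2.71 CPM against 1.03 in Mock. CEBPD, another C/EBP factor, had a log2FC of -1.02 (SE 0.28, adjusted P = 0.0835, edgeR) in siCIN85, at 27.8 CPM against 56.2 in siNeg and 25.1 in Mock. Protein levels, on which Tribbles proteins act, were not measured in these files.

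AKT pathway regulators and FOXO targets also did not pass in edgeR's fit of all 12 libraries. Of 22 genes, 20 were tested. In upCIN85 versus Mock 0 passed, with 4 at an unadjusted P below 0.05 and 0 by DESeq2, and the shares of all genes were 1.23%, 14.5% and 2.50%. In siCIN85 versus siNeg 0 passed, with 1 at an unadjusted P below 0.05 and 0 by DESeq2, against 1.04%, 15.7% and 2.71%. With the replicate block 1 of 19 passed, against 10.6%. The medians were 0.02 in both comparisons. TXNIP, a FOXO target that limits glucose uptake, had a log2FC of 0.76 (SE 0.33, adjusted P = 0.304, edgeR) in upCIN85. PIK3IP1, an inhibitor of PI3 kinase, had -0.72 (SE 0.53, adjusted P = 0.531, edgeR) in siCIN85, at 3.31 CPM against 5.49 in siNeg. Its value in upCIN85 was -0.69 (SE 0.58, adjusted P = 0.635, edgeR), and libraries overlapped in both comparisons.

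**Figure D4:**
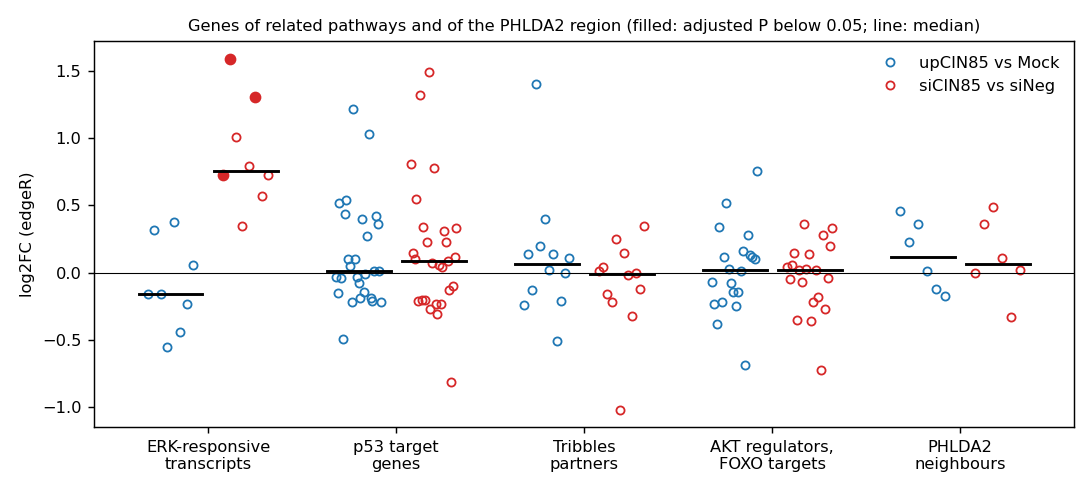
log2FC (vertical axis) of each tested gene in 5 groups of genes related to the 2 families, in upCIN85 versus Mock (blue) and siCIN85 versus siNeg (red), with filled points past an adjusted P of 0.05 and lines at the medians. The ERK-responsive genes had medians of -0.16 and 0.76, and their 3 filled points are DUSP4, ETV4 and CCND1 in siCIN85.

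The tested neighbours of PHLDA2 on 11p15 showed no change past the threshold. Of 36 annotated genes within 500 kb, 12 were in the count table and 6 were tested. In upCIN85 versus Mock 0 of 6 passed by edgeR, with 1 at an unadjusted P below 0.05 and 0 by DESeq2. The shares of all genes were 1.23%, 14.5% and 2.50%. In siCIN85 versus siNeg all 3 counts were 0, against 1.04%, 15.7% and 2.71%. With the replicate block 0 passed, against 10.6%. The medians were 0.12 and 0.07. CDKN1C, the imprinted cell cycle inhibitor p57 at a distance of 42.5 kb, had log2FC values of 0.23 (SE 0.27, adjusted P = 0.757, edgeR) and 0.36 (SE 0.29, adjusted P = 0.563). NAP1L4, a histone chaperone gene 15 kb away on the other side, had 0.01 (SE 0.11, adjusted P = 0.986, edgeR) and 0.11 (SE 0.11, adjusted P = 0.673). SLC22A18, the nearest gene at 3.03 kb, had 74 counts in all libraries together and was not tested.

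Across the 12 libraries the genes whose log2 CPM varied most like that of PHLDA2 were OPRD1, CBL, FLI1, MTSS1 and ZIK1, with Pearson r of 0.98, 0.97, 0.97, 0.97 and 0.95. The libraries share their groups, so these r largely restate the group differences, and they are given without a test. CBL, the ubiquitin ligase that CIN85 binds, averaged 148 CPM and had log2FC values of -0.53 in upCIN85 and 0.30 in siCIN85, while FLI1, an ETS transcription factor, averaged 34.5 CPM with -0.71 and 0.45. OPRD1, MTSS1 and ZIK1 averaged 1.96 to 2.22 CPM, so their values rest on few counts.

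PHLDA1 was the relative most like PHLDA2. It had r = 0.74 with PHLDA2 over the 12 libraries and ranked 527 of 12541 genes, followed by TRIB2 with 0.34, TRIB1 with 0.17 and PHLDA3 with -0.20. TRIB1 and TRIB2 had r = 0.68 with each other. After removal of the group means, r between pairs of the 5 genes lay between -0.17 and 0.37, with 0.30 for PHLDA1 and PHLDA2 and 0.28 for TRIB1 and TRIB2. For PHLDA2 and TRIB2, r within groups (0.31) was close to that over all libraries.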

How the data were processed

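RNA-seq covered 12 libraries of HOS cells. Per the labels, the kit captures 3′ ends of transcripts and tags molecules with identifiers, and the submitters' processing notes name FastQC, cutadapt 4.3, STAR 2.7.3a, Picard 2.25.6, MultiQC 1.10.1, featureCounts (Subread 2.0) and GRCh38. The authors deposited whole-number counts per gene without normalization; the annotation, strand setting and collapsing of identifiers are not given in the sources used here. A 3′ end count is not divided by transcript length, so levels are compared within a gene. Names and positions came from GENCODE 29, and 95 of 25141 identifiers had no match.

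In R 4.3.3, edgeR 4.0.16 (filterByExpr, minimum count 10 and minimum total 15, 12542 genes; TMM; quasi-likelihood fit of all 12 libraries with a mean per group, 8 residual degrees of freedom) gave log2FC and two-sided P-values, adjusted by Benjamini-Hochberg over all genes tested with a threshold of 0.05. SE was taken as |log2FC| over the root of F. CPM are TMM-normalized. The r values used log2 CPM with a prior count of 2. Depth limits the low genes most: TRIB2 had as few as 7 counts in a library. The fit was tested on simulated data, and no library duplicated another of its group, the only pairs compared. Proteins were translated from GENCODE coding sequences in place of RefSeq entries, and aligned with BLOSUM62. A stretch of coding sequence is not reported here.

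The 5 genes, the lists and the naming rule were chosen with earlier results of these data known. Named from each list were genes that passed in either CIN85 comparison or, with fewer than 2 of these, the 2 largest absolute log2FC; of the PHLDA2 neighbours, the nearest tested gene on each side; and the 5 genes most like PHLDA2. Same-numbered siCIN85 and siNeg libraries, by the numbers in the labels, deviated together from their group means (r of 0.353, 0.269 and 0.446). They were therefore treated as pairs, which the labels do not state. Alternatives were DESeq2 1.42.0, 6 libraries, RLE, other filters, thinning to 3540641 counts, the replicate block and leaving out each library.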

Additional observations from a re-analysis of the deposited data

How the results depend on the processing

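The log2FC of the 5 genes kept its sign in 207 of 212 values under the alternatives, and the exceptions were PHLDA1 and PHLDA3 in upCIN85 versus Mock and TRIB1 in siNeg versus Mock, none of them called. PHLDA2 ranged from -0.67 to -0.47 in upCIN85 and from 0.37 to 0.43 in siCIN85, TRIB1 from 0.34 to 0.59 and from 0.55 to 0.89, and TRIB2 from 0.22 to 0.61 and from 1.30 to 1.85. The number of the 5 genes called ranged from 0 to 1 in upCIN85 and from 0 to 4 in siCIN85. In upCIN85 the 0 came from fits where 25 of 12538 to 46 of 12566 genes passed. In siCIN85 the 0 came from fits where 9 of 13020 to 125 of 10676 genes passed. The 4 came from the replicate block on the 6 knockdown libraries, where 10.6% of all genes passed. With at least 10 counts required in every library TRIB2 could not be fitted, since siNeg replicate 1 had 7.

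The background counts moved more, and the cause was not tested. In upCIN85 versus Mock 154 genes passed, against 281 with 6 libraries, 637 without a filter, 311 with DESeq2, 284 with DESeq2 and a replicate block, 100 after thinning and 25 (without upCIN85 replicate 3) to 260 (without upCIN85 replicate 2) with a library left out. In siCIN85 versus siNeg 131 passed, against 50, 617, 298 and 295 under the first 4 of these, and 9 (without siCIN85 replicate 1) to 362 (without siCIN85 replicate 2) with a library left out. In siNeg versus Mock 66 passed, against 376 without a filter, 183 with DESeq2 and 7 (without Mock replicate 3) to 134 (without siNeg replicate 3) with a library left out. With a replicate block added to edgeR's fit of all 12 libraries, 383, 199 and 114 genes passed in the 3 comparisons, and with the block on the 6 knockdown libraries, chosen after seeing the data, 1248. Same-numbered upCIN85 and Mock libraries had r of 0.326, 0.227 and 0.0989, so they too deviated together, weakly in replicate 3. Whether they were made as pairs is not stated in the labels.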
